A study of Rattus norvegicus with 48 samples.

Results

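The cluster that runs from miR-322 to miR-450a is a group of microRNA hairpins that lie close together on the rat X chromosome, and its products were followed here in livers of male Sprague-Dawley rats given the hepatotoxicant thioacetamide (TAA). The members were chosen by name from the count table, as the listed mature products of the hairpins from miR-322 to miR-450a, and where a mature miRNA stood on several rows, one per precursor, the row with the most reads was kept. This gave 8 members (rno-miR-322-3p, rno-miR-322-5p, rno-miR-351-5p, rno-miR-450a-5p, rno-miR-450b-5p, rno-miR-503-3p, rno-miR-542-3p and rno-miR-542-5p, written below without the species prefix) among 664 mature miRNAs with a read. All 8 passed the filter on low levels, which left 301 miRNAs for testing.

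The study asked how liver miRNAs respond to TAA across doses and durations. The treated groups differed in the daily amount of TAA, which was 4.5, 15 or 45 mg/kg and is called low, middle and high dose, and in how long it was given (written 3-d to 28-d, for 3, 7, 14 or 28 days). Each of the 4 durations had its own controls, which were given only the vehicle. Each of the 16 groups was profiled by miRNA-seq of total RNA from whole liver tissue, from 3 of the 5 rats in the study's group, so that there were 12 control and 36 treated libraries. The age of the rats was not given in the sources used here.

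MicroRNAs are short RNAs that lower the output of messenger RNAs which pair with their seed, the stretch near the 5′ end. miR-322, called miR-424 in humans, carries the seed of miR-15 and miR-16, a family known for repressing cyclins and their kinases and so for slowing entry into the cell cycle. The hairpins of the cluster are held to be made together from 1 long transcript, and each hairpin can give a miRNA from its 5p arm and another from its 3p arm.

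In RefSeq's GRCr8 assembly of the rat genome, the 6 hairpins lie on the minus strand of chromosome X between bases 137720933 and 137726241, within 5309 bases. The protein-coding genes on either side are Hprt1 and Plac1, and the span overlaps LOC102550366. In the direction of transcription the order is miR-322, miR-503, miR-351, miR-542, miR-450b and miR-450a, separated by 220, 659, 2861, 1029 and 54 bases. These positions are those of RefSeq and not of the rn5 build to which the authors' reads were mapped.

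All 8 members were found in RefSeq's miRNA table. Their mature sequences are shown with the seed (bases 2 to 8) in capitals, since the seed decides which of them can act on the same messengers:
miR-322-5p: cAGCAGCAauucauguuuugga
miR-322-3p: aAACAUGAagcgcugcaaca
miR-503-3p: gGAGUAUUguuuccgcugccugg
miR-351-5p: uCCCUGAGgagcccuuugagccuga
miR-542-5p: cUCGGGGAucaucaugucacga
miR-542-3p: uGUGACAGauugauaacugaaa
miR-450b-5p: uUUUGCGAuguguuccuaaua
miR-450a-5p: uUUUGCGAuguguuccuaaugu

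The 8 members carry 7 different seeds. miR-450a-5p and miR-450b-5p share a seed and, beyond it, their first 20 bases, so reads of the one could be counted for the other and the split between them is uncertain. The seeds of 2 members are also those of miRNAs made elsewhere in the genome. That of miR-322-5p is shared with miR-15b-5p, miR-16-5p, miR-195-5p and miR-497-5p, and that of miR-351-5p with miR-125a-5p and miR-125b-5p. The other product of the miR-503 hairpin, miR-503-5p, has a seed that no other miRNA of the table carries. These relatives are shown here for comparison:
miR-16-5p: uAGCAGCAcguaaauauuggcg
miR-503-5p: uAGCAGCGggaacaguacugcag
miR-125b-5p: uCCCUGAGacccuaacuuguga

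The libraries held 293331 to 14906217 counts, with a median of 10237542. The library of control 3-d replicate 1 stood apart, since all the others held at least 4829217 counts. In that library 3 counts, taken as the limit of detection, equal 10.2 RPM, the unit of counts scaled to a common library total. It gave 4 counts of miR-450b-5p, 5 of miR-503-3p and 8 of miR-542-3p. Its summed level of 4 red blood cell miRNAs was 98080 RPM, against a median of 4743 RPM in the 12 controls. Nearly all of that sum was miR-486, at 97896 RPM. Another miRNA of that list, miR-144-3p, had its lowest level of the series there, 13.6 RPM against a median of 54.1 RPM. This library entered every 3-d comparison, and the values that rested most on it are also given without it.

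Levels are given below as normalized RPM, which upper quartile normalization has scaled between libraries, and as mean ± SD of 3 rats. Within the cluster miR-351-5p, a rodent miRNA of the miR-125 seed family, had the highest level, ranking 60th of all miRNAs by mean RPM. It was followed by miR-322-5p (rank 84), miR-450a-5p (97), miR-450b-5p (131), miR-322-3p (149) and miR-542-3p (157). miR-503-3p and miR-542-5p were low, at ranks 242 and 244. The ranks take no account of length, and the mature sequences are 20 to 25 bases long.

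The hairpins gave unequal amounts from their arms. The 5p arm of miR-503, the product best known from work on cell cycle arrest, had 0 to 11 counts in a library and at most 1.35 RPM, while the 3p arm had 5 to 203 counts. The 3p arms of miR-351, miR-450a and miR-450b had at most 19, 17 and 40 counts. These 4 products were under the filter of 5 RPM and were not tested.

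Over the 16 groups the highest mean of a member was at most 2.85 times its lowest. The highest group mean of miR-322-5p, 503.5 ± 69.9 at high dose 14-d, was 1.67 times the lowest, 302 ± 17.8 at middle dose 28-d. The same ratio was 1.79 for miR-322-3p, 1.70 for miR-450a-5p and 1.73 for miR-542-5p. It was larger for miR-503-3p (2.36), miR-542-3p (2.68) and miR-450b-5p (2.85, or 2.57 without control 3-d replicate 1). For miR-351-5p it was 2.84 with that library and 1.58 without it. When the 16 groups were put in order of their means, neighbours overlapped in all 15 pairs for 5 members and in 14 of 15 for miR-450b-5p, miR-542-3p and miR-542-5p. Without that library they overlapped in at least 14 of 15 pairs for every member.

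**Figure D1:**
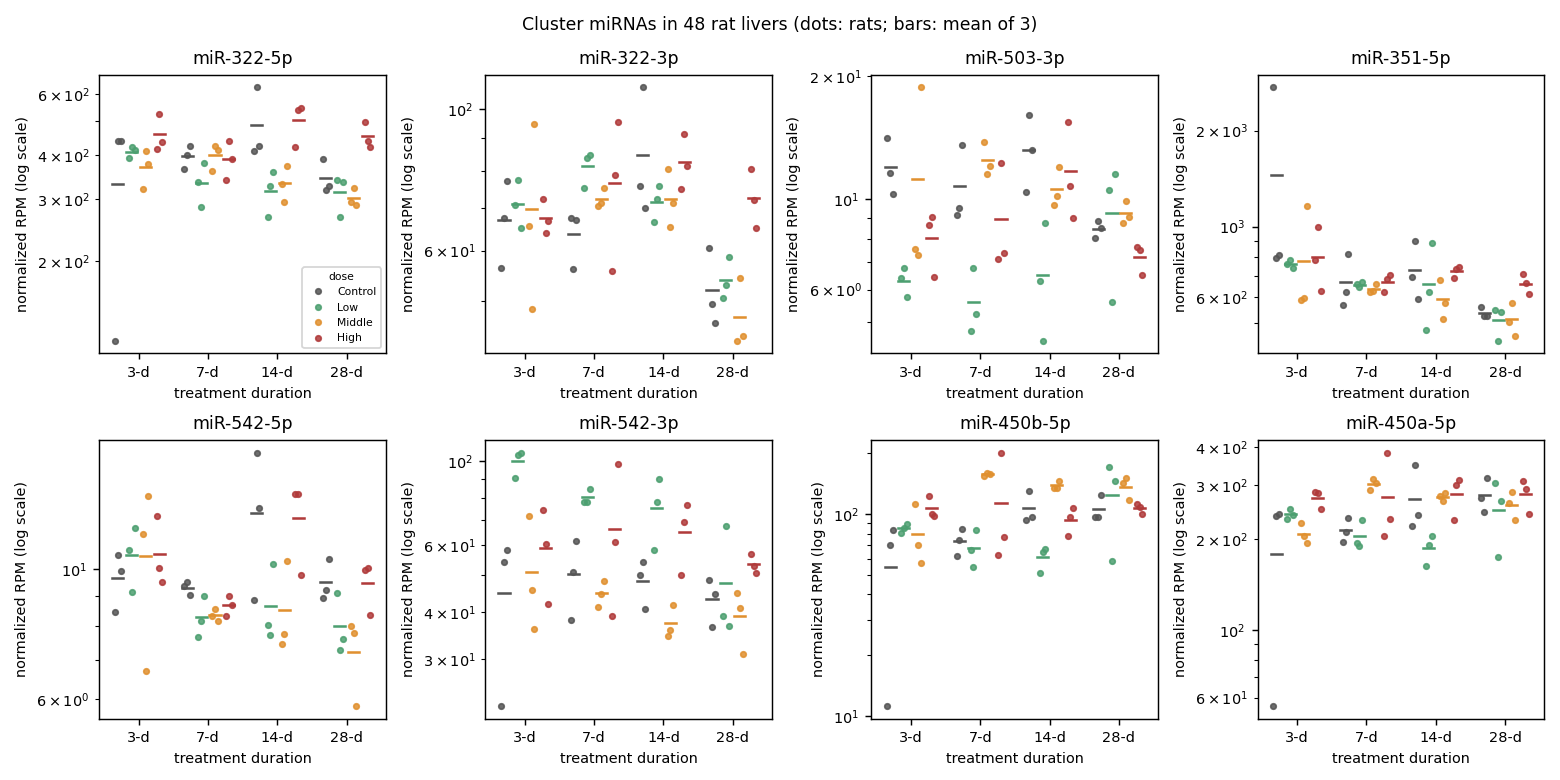
Level of each member in the 48 livers, as normalized RPM on a log scale, against treatment duration, with dots for rats, bars for the mean of 3, and colours for dose. The low dose dots of miR-542-3p lie above and those of miR-503-3p below the control dots up to 14-d, while at 28-d the low dose dots of neither member are all on one side of the control dots.

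Each dose was compared with the controls of its own time point, 3 rats against 3. A differentially expressed miRNA (DEM) had an unadjusted p below 0.05 by edgeR's quasi-likelihood test and a fold change above 1.5, and the Benjamini-Hochberg adjusted p over the 301 miRNAs is given beside it. The 3 doses of a time point share their controls. The cluster gave 9 DEMs in 96 tests, 4 higher and 5 lower, of which 7 also had an adjusted p below 0.05. The lower calls were 8 or 9 under 5 of 12 alternatives (9 with TMM, DESeq2 size factors, no filter or DESeq2's Wald test, and 8 with 1 fit of all 48 libraries). The groups did not overlap in 28 of the 96, or 29.2%, where 35.5% of all tests had groups apart. Over all tested miRNAs and the 12 conditions, 18.1% of tests were called (12.1% higher and 5.98% lower, and 11.1% with an adjusted p below 0.05), so the cluster's share of 9.38% was below the background. The median size of the log2 fold change was 0.23 for the cluster and 0.35 for all tested miRNAs.

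At the low dose 8 of 32 tests were called, against 22.6% of all tests. The middle dose gave 1 of 32, against 17.3%, and 3 with TMM, DESeq2 size factors, library size, no filter or DESeq2's Wald test. The high dose gave none of 32, against 14.3%, and 2 had an unadjusted p below 0.05 with the quasi-likelihood test and 1 with DESeq2's Wald test, which also called none. The 28-d livers gave none of 24, against 20.2%, again with 2 at an unadjusted p below 0.05, or 1 with DESeq2, which called none. Scaling by library size gave 1 call at the high dose and 1 at 28-d, as did the 12 controls together. With 1 fit of all 48 libraries there were 2 calls at the high dose. That fit also gave 6 calls at 3-d, where the separate fits gave 2.

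**Figure D2:**
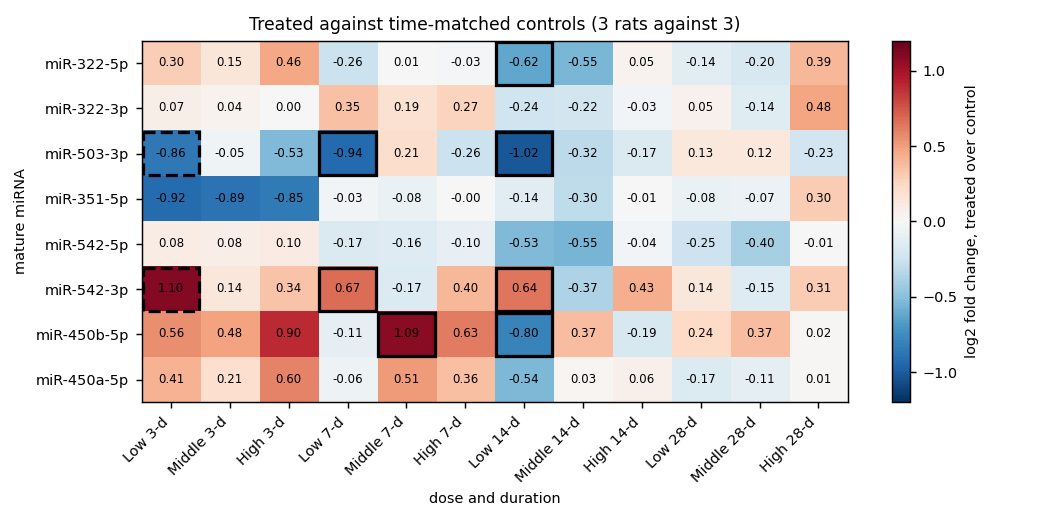
Log2 fold change of treated over time-matched control livers for each member (vertical axis, in the order of the hairpins) in each condition (horizontal axis), with red for higher and blue for lower. Boxed cells are DEMs, solid where the adjusted p was also below 0.05 and dashed where it was 0.219. 8 of the 9 boxes stand in low dose columns, and no box stands at the high dose or at 28-d.

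miR-503-3p, from the arm opposite the known cell cycle regulator, fell at the low dose at 3 time points. At 7-d its level was 4.76, 6.76 and 5.23 normalized RPM in the low dose rats and 9.13, 9.52 and 13.5 in the controls, a log2 fold change of -0.94 ± 0.23 (SE, adjusted p = 0.0116). All low dose rats lay below all control rats. Here 2 of the 8 members were called, where 28.9% of all miRNAs were.

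At 14-d miR-503-3p measured 6.31, 4.50 and 8.72 in the low dose rats against 10.4, 16.04 and 13.1 in the controls. The groups again did not overlap, and the log2 fold change was -1.02 ± 0.29 (adjusted p = 0.0157). This time point had the most calls of the cluster, 4 of 8, where 32.6% of all miRNAs were called.

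At 3-d the low dose rats had 6.41, 6.78 and 5.75 and the controls 14.1, 11.6 and 10.3 normalized RPM of miR-503-3p. The groups did not overlap and the log2 fold change was -0.86 ± 0.27, but the adjusted p was 0.219. In this comparison 2 of 8 members and 16.6% of all miRNAs were called, and no miRNA had an adjusted p below 0.05. Both of the 3-d calls thus failed a threshold on the adjusted p, and both were lost when single low dose libraries were left out, namely replicates 43 or 45 for miR-503-3p and 44 or 45 for miR-542-3p. The call of miR-503-3p was also lost without control replicate 2.

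The 7-d and 14-d calls of miR-503-3p were made again in every alternative in which it was tested. When 5 RPM were required in every library miR-503-3p was not tested.

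miR-542-3p, known for targeting the apoptosis inhibitor survivin, moved the other way in the same livers. At 3-d it measured 90.5, 104 and 106 normalized RPM in the low dose rats and 22.6, 54.2 and 58.2 in the controls, a log2 fold change of 1.10 ± 0.37 (adjusted p = 0.219). The lowest control value came from the library with few counts, and the other control values were also below every low dose value. Without that library the log2 fold change was 0.83 (adjusted p = 0.0111).

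At 7-d the low dose rats had 78.2, 77.9 and 84.7 and the controls 38.01, 51.1 and 61.6 normalized RPM of miR-542-3p. The low dose values were close to each other and above all controls, with a log2 fold change of 0.67 ± 0.17 (adjusted p = 0.0134). The fold change fell under the 1.5-fold threshold with normalization by library size alone, at 0.56 on the log2 scale, and without control 7-d replicate 4, at 0.51.

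At 14-d miR-542-3p measured 58.1, 77.9 and 89.8 in the low dose rats against 50.04, 54.1 and 40.7 in the controls. The groups did not overlap but the gap was small, and the log2 fold change was 0.64 ± 0.20 (adjusted p = 0.0274). This call was lost under 7 of 12 alternatives, with log2 fold changes of 0.39 to 0.51, and without control 14-d replicate 15 (0.53) or low dose 14-d replicate 42 (0.49).

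The low dose rats of 28-d differed among themselves. miR-503-3p was 10.5, 5.60 and 11.5 normalized RPM in replicates 28, 29 and 30, against 8.04, 8.84 and 8.49 in the controls. miR-542-3p was 38.97, 67.3 and 36.7 in the same rats, against 48.7, 36.4 and 44.5. Replicate 29 thus had the low miR-503-3p and high miR-542-3p of the low dose livers of earlier time points, and replicates 28 and 30 did not. The group means gave log2 fold changes of 0.13 and 0.14, neither a DEM.

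Replicate 29 also stood apart from replicates 28 and 30 outside the cluster. Its summed level of 4 hepatocyte miRNAs was 308309 RPM against 237484 and 250060, and its summed level of miR-125a-5p and miR-125b-5p was 2293 against 7762 and 7675. The low dose livers up to 14-d had 272972 to 319172 RPM of the hepatocyte miRNAs and 2199 to 2536 RPM of the miR-125 pair. The library numbers in the labels run from 40 to 48 for those livers and from 28 to 30 for the low dose livers of 28-d. What the numbers stand for was not given in the sources used here, and their part in the result was not tested.

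Of the miR-450 pair, whose targets are less studied, only miR-450b-5p was among the 9 DEMs, at 2 conditions and in opposite directions. At middle dose 7-d miR-450b-5p measured 153, 160 and 157 normalized RPM against 62.1, 74.2 and 84.6 in the controls. The middle dose values were close together and far above the controls, with a log2 fold change of 1.09 ± 0.12 (adjusted p = 0.000379). With the filter, scaling and separate fits used for the calls above, this was the cluster's only call at the middle dose. It was 1 of 8, where 15.9% of all miRNAs were called. Other settings of the quasi-likelihood test gave up to 3 at this dose, as with TMM. The call of miR-450b-5p was made again under all 12 alternatives and without each library in turn. Its adjusted p reached 0.201 among the alternatives and 0.00447 among the fits without 1 library.

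In the same livers miR-450a-5p had 289, 315 and 304 normalized RPM against 195, 211 and 234 in the controls. The groups did not overlap and the adjusted p was 0.00536, but the log2 fold change of 0.51 ± 0.10 was under the 1.5-fold threshold.

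At low dose 14-d miR-450b-5p measured 51.1, 64.6 and 67.4 against 93.5, 130 and 96.2 in the controls, all low dose rats below all controls. The log2 fold change was -0.80 ± 0.20 (adjusted p = 0.00739). miR-450a-5p had 162, 191 and 205 against 220, 350.98 and 240 normalized RPM, again without overlap. Its log2 fold change of -0.54 ± 0.20 (adjusted p = 0.0482) did not reach 1.5-fold. DESeq2's Wald test did call miR-450a-5p here, at -0.68 (adjusted p = 0.00709).

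At high dose 7-d 1 rat, replicate 26, had 201 normalized RPM of miR-450b-5p and 385 of miR-450a-5p. The other two rats of the group had 63.0 and 76.9 of miR-450b-5p and 204 and 233 of miR-450a-5p, within the range of the controls. The group's log2 fold change of miR-450b-5p was 0.63 and not a DEM.

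miR-322-5p, the member with the miR-15/16 seed, was called at 1 of 12 conditions. At low dose 14-d it measured 267, 326 and 359 normalized RPM against 411, 626 and 425 in the controls. The groups did not overlap, and the log2 fold change was -0.62 ± 0.20 (adjusted p = 0.0262). The highest control value came from control 14-d replicate 14, without which the log2 fold change was -0.40 and the call was lost, as it was without low dose 14-d replicate 40 (-0.51). Against all 12 controls of the 4 time points together the log2 fold changes of miR-322-5p and miR-450b-5p at low dose 14-d were -0.30 and -0.50, and neither was a DEM.

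At middle dose 14-d miR-322-5p had 331, 294 and 373 normalized RPM against the same controls, a log2 fold change of -0.55 that was no DEM (adjusted p = 0.0597). DESeq2's Wald test called it, at -0.61 (adjusted p = 0.0192). At high dose 28-d it had 498, 440 and 423 against 390, 318 and 328, without overlap, with a log2 fold change of 0.39 (adjusted p = 0.142).

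miR-322-3p, from the other arm of that hairpin, was not a DEM at any of the 12 conditions. At low dose 7-d it measured 75.2, 83.8 and 84.8 normalized RPM against 67.6, 56.2 and 67.0 in the controls, a log2 fold change of 0.35 ± 0.12 (adjusted p = 0.0438). At high dose 28-d it measured 80.5, 72.1 and 65.0 against 60.6, 49.5 and 46.2. The groups did not overlap at either condition, and the second log2 fold change was 0.48 ± 0.17 (adjusted p = 0.111).

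miR-351-5p and miR-542-5p gave no DEM with the filter, scaling and separate fits used for the calls above. DESeq2's Wald test called miR-542-5p at 14-d, lower at the low dose (-0.67, adjusted p = 0.0819) and at the middle dose (-0.61, adjusted p = 0.120). The log2 fold changes of miR-351-5p at 3-d were -0.92, -0.89 and -0.85 for the low, middle and high dose, and all of them rested on control 3-d replicate 1. That library had 2734 normalized RPM of miR-351-5p from 970 counts, where the other controls of that time point had 796 and 815. The mean 3-d effect over the doses was -0.88 ± 0.23 (adjusted p = 0.00365, where 31.2% of all miRNAs passed) with it and -0.04 without it (adjusted p = 0.909). At the 3 later time points the log2 fold changes of miR-351-5p were between -0.30 and 0.30.

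A fit of all 48 libraries was used to average the effects. Over the 12 conditions 1 of 8 members, miR-503-3p, passed an adjusted p of 0.05, where 41.2% of all miRNAs did, with a mean log2 difference of -0.32 ± 0.12 (SE, adjusted p = 0.0296). It was past the threshold in neither the fit without control 14-d replicate 14 (adjusted p = 0.0721), nor those without control 7-d replicate 6 (0.0836) or control 3-d replicate 2 (0.0521). The mean differences of miR-542-3p (0.27 ± 0.12, adjusted p = 0.0579) and miR-351-5p (-0.25 ± 0.12, adjusted p = 0.0760) did not pass, and the latter was -0.04 without control 3-d replicate 1. Between control livers of 28-d and 7-d no member had an adjusted or unadjusted p below 0.05, where 5.98% of all miRNAs had an adjusted one.

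Averaged over the 4 time points, the doses gave different pictures. At the low dose miR-503-3p fell by 0.67 ± 0.15 on the log2 scale (adjusted p = 0.000394) and miR-542-3p rose by 0.62 ± 0.14 (adjusted p = 0.000436), so that 2 of 8 members passed, where 49.8% of all miRNAs did. The number was 4 of 8 under 5 of 6 alternatives (TMM, DESeq2 size factors, library size, no filter and summed precursor rows), in which miR-351-5p and miR-542-5p passed as well. miR-503-3p and miR-542-3p passed without each library in turn. At the middle dose miR-450b-5p rose by 0.55 ± 0.17 (adjusted p = 0.0124) and miR-542-5p fell by 0.26 ± 0.11 (adjusted p = 0.0479), where 36.5% of all miRNAs passed. The latter was lost in 34 of the 48 fits that left out 1 library, and the former just missed the threshold when no filter was used (adjusted p = 0.0506). At the high dose no member passed, where 28.2% of all miRNAs did, and 1 of 8, miR-542-3p at 0.35 ± 0.14, had an unadjusted p below 0.05 (adjusted p = 0.0560).

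**Figure D3:**
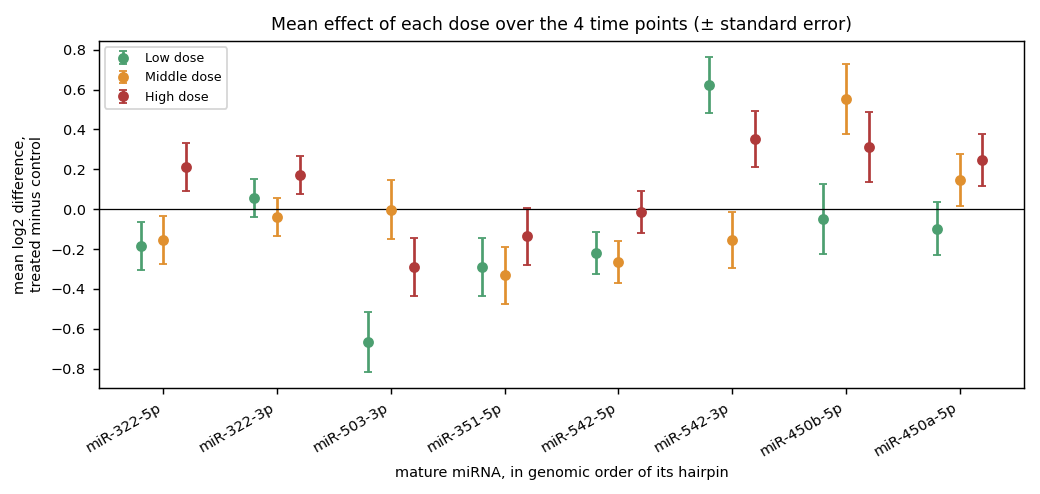
Mean log2 difference of treated minus control livers over the 4 time points, with its standard error, for each member in the order of the hairpins and each dose. At the low dose miR-503-3p lies at -0.67 and miR-542-3p at 0.62, while at the middle dose the same members lie near 0 and at -0.15, and miR-450b-5p lies at 0.55.

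The differences between doses were then tested directly. Of the 7 contrasts planned (high minus low dose at each time point, and 28-d minus 7-d effects at each dose), 2 of 56 tests passed an adjusted p of 0.05, both at 14-d, where 19.3% of all miRNAs passed. With TMM, DESeq2 size factors, library size or no filter 5 tests passed. In the quasi-likelihood fit with upper quartile normalization no member passed for high minus low dose at the other time points, where 13.6% (3-d), 8.64% (7-d) and 2.66% (28-d) of all miRNAs passed. No member passed for 28-d minus 7-d either, where 0.0%, 0.0% and 0.332% of all miRNAs passed at the low, middle and high dose, and 1 of these 24 tests, miR-503-3p at the low dose (1.07 ± 0.41, adjusted p = 0.241), had an unadjusted p below 0.05. miR-503-3p was higher at the high than at the low dose by 0.85 ± 0.30 (adjusted p = 0.0400) and miR-322-5p by 0.67 ± 0.24 (adjusted p = 0.0463). The former was lost without low dose 14-d replicates 40 or 41 or high dose 14-d replicates 7 or 8, one at a time, and the latter in 25 of the 48 fits that left out 1 library.

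Further contrasts between the dose means were added after the values had been seen, and 8 of 24 tests passed. Middle minus low dose gave -0.78 ± 0.14 for miR-542-3p (adjusted p = 2.84e-05), 0.66 ± 0.15 for miR-503-3p (adjusted p = 0.000290) and 0.60 ± 0.17 for miR-450b-5p (adjusted p = 0.00428). These 3 passed under all alternatives in which they were tested and without each library in turn, and 47.5% of all miRNAs passed this contrast. High minus low dose gave 0.40 ± 0.12 for miR-322-5p (adjusted p = 0.00965), 0.38 ± 0.15 for miR-503-3p (0.0425) and 0.34 ± 0.13 for miR-450a-5p (0.0399), where 35.2% of all miRNAs passed. High minus middle dose gave 0.51 ± 0.14 for miR-542-3p (adjusted p = 0.0181) and 0.37 ± 0.12 for miR-322-5p (0.0473), where 8.97% of all miRNAs passed. The last of these was lost under all 6 alternatives. The difference of miR-542-3p was lost with scaling by library size and without high dose 7-d replicate 27 (0.41, adjusted p = 0.0749), and the high minus low dose differences of miR-503-3p and miR-450a-5p were each lost in 13 of the 48 fits that left out 1 library. That of miR-503-3p was also lost with TMM (0.35, adjusted p = 0.0523) and with no filter (0.33, adjusted p = 0.174), and that of miR-450a-5p with no filter (0.29, adjusted p = 0.137).

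The balance of the arms of a hairpin does not depend on how a library is scaled. For miR-542 the 3p arm made up 85.7% ± 4.18 (SD, n = 36) of the reads of both arms in treated livers and 81.5% ± 4.35 (n = 12) in controls. The difference of 4.20 percentage points was tested by permuting treatment within time points (2-sided permutation test, p = 0.00417, adjusted p = 0.00834 over 2 hairpins). Without control 3-d replicate 1, where the share rested on 11 reads (72.7%, 95% Wilson interval 43.4 to 90.3%, counting error only), the difference was 3.41 points (adjusted p = 0.0330).

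By dose the mean 3p share of miR-542 was 88.8% ± 3.39 at the low, 83.1% ± 3.70 at the middle and 85.1% ± 3.41 at the high dose (n = 12 each), values for which no test between doses was run. The 3-d, 7-d and 14-d livers of the low dose had 90.4% ± 1.34, 90.7% ± 0.364 and 89.5% ± 1.58. In the 28-d livers the shares were 81.1% (interval 77.6 to 84.1%), 90.3% (87.9 to 92.2%) and 82.8% (79.6 to 85.6%). The highest of these was again replicate 29, the rat that also had the lowest miR-503-3p of its group.

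**Figure D4:**
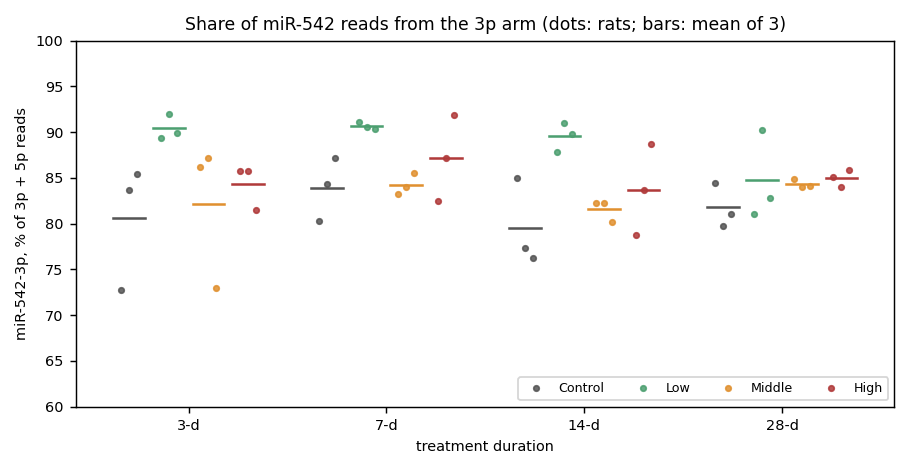
Share of miR-542 reads that came from the 3p arm, in percent of 3p and 5p reads, for each liver (dots) and each group (bars, mean of 3) against treatment duration. The low dose dots up to 14-d lie between 87.9 and 91.9%, above all controls of their time points, and the vertical axis starts at 60.

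For miR-322, where the 5p arm is the more abundant, the 3p share was 15.6% ± 2.72 in treated and 15.5% ± 5.40 in control livers, a difference of 0.166 points (2-sided permutation test, p = 0.894). Control 3-d replicate 1 had a share of 32.3% (95% Wilson interval 21.95 to 44.6%) from 62 reads. Without it the control mean was 13.9% and the difference 1.69 points (adjusted p = 0.0330), so the outcome of this test turned on that library.

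Members made from 1 transcript need not share a pattern of mature levels, and here they differed. Across the 16 group means of log2 level the 28 pairs of members had correlations from -0.69 to 0.92, with a median of 0.19 and 21 above 0. All points come from the same libraries and share their scaling. The highest was that of miR-450a-5p with miR-450b-5p (r = 0.92), whose reads can be confused, followed by miR-322-5p with miR-542-5p (0.74). The arms of 1 hairpin gave 0.55 for miR-322 and 0.27 for miR-542. The lowest was that of miR-503-3p with miR-542-3p. Without control 3-d replicate 1 the median was 0.29 and 19 pairs were above 0. The highest were then 0.85 for both miR-450a-5p with miR-450b-5p and miR-322-5p with miR-542-5p, and miR-322-5p with miR-351-5p went from 0.12 to 0.76. The lowest were miR-450b-5p with miR-542-3p (-0.67) and miR-503-3p with miR-542-3p (-0.65).

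Outside the cluster, the 5 miRNAs whose group means were most like the cluster's average pattern were miR-201-5p (r = 0.69 over 16 groups), miR-335 (0.67), miR-147 (0.58), miR-130a-3p (0.57) and miR-195-5p (0.54). Without control 3-d replicate 1 their r was 0.49 to 0.67, and miR-130a-3p and miR-195-5p were 7th and 9th in the order. Each member is itself part of the average, which raises its r, so a higher r for a member than for an outside miRNA is partly built in. With all libraries the r of miR-322-5p (0.92), miR-542-5p (0.79) and miR-322-3p (0.70) was above that of the 5 outside miRNAs. The remaining members had a lower r than all 5 even so: miR-450a-5p (0.50), miR-503-3p (0.33), miR-351-5p (0.31), miR-542-3p (0.26) and miR-450b-5p (0.24).

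The miRNAs that carry the same seeds were listed alongside. To the 4 miRNAs named above with the miR-15/16 seed, miR-15a-5p was added by name, its seed not checked in the sequence table. Of 60 tests of these 5 miRNAs, 5 were DEMs (8.33%, against 18.1% of all tests), 4 higher and 1 lower, with a median log2 fold change of -0.05 beside 0.06 over all tested miRNAs. miR-15b-5p was higher at 2 conditions, miR-195-5p higher at 1 and lower at 1, and miR-16-5p, the most abundant of them at a median of 7523 RPM, higher at 1. Of 24 tests of miR-125a-5p and miR-125b-5p 7 were DEMs (29.2%, against the same 18.1%), 3 of 8 lower at the low dose (22.6% of all low dose tests called), 3 of 8 higher at the middle dose (17.3%) and 1 of 8 lower at the high dose (14.3%).

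Whole liver holds many cell types, and a change in the number of cells of a type cannot be told apart from a change in RNA per cell. The hepatocyte miRNAs were the defining signal of the tissue, with miR-122-5p at 22336 to 62120 RPM and miR-192-5p at 96021 to 258712 RPM. The summed level of the 4 hepatocyte miRNAs was 237484 to 319172 RPM (median 295434) in the low dose livers. In the control livers it was 125582 to 254551 RPM (median 234985). The lowest control value came from control 3-d replicate 1, and the controls of the later time points had at least 222703 RPM. Of 16 low dose tests 4 were DEMs, 2 higher and 2 lower. Of all low dose tests 22.6% were called and 8.89% were called lower. The leukocyte miRNAs (miR-142-3p, miR-142-5p, miR-223-3p and miR-150-5p) summed to 1816 to 4986 RPM (median 2491) in the low dose livers. In the control livers they summed to 2941 to 4473 RPM (median 3434), and 5 of 16 low dose tests were lower. Over all conditions the lower calls of this list were of miR-150-5p (4) and miR-223-3p (2) alone. The most abundant, miR-142-5p at a median of 2643 RPM, was never called, and miR-142-3p was called 1 time, higher.

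The 8 miRNAs of stellate cells, fibroblasts or smooth muscle summed to 33607 to 49936 RPM at the low dose and 23554 to 47743 RPM in controls. The lowest control value was again that of control 3-d replicate 1, but the lowest 28-d control was close to it, at 23828 RPM. Nearly all of the summed level was miR-143-3p, at a median of 40981 RPM, which was a DEM at no condition. Of 28 low dose tests 6 were lower (21.4%, against 8.89% of all low dose tests), all of them of other members. The epithelial or bile duct miRNAs summed to 267 to 1354 RPM against 518 to 1394 RPM, with 2 of 20 low dose tests higher and 4 lower. The 518 RPM also came from control 3-d replicate 1, and the lowest 28-d control had 556 RPM. The endothelial miR-126a arms gave no DEM in 24 tests with edgeR, where 18.1% of all tests were called, or with DESeq2. An unadjusted p below 0.05 was found in 6 of these tests with edgeR and 5 with DESeq2. The red blood cell list had 21 DEMs in 48 tests (43.8%, against 18.1% of all tests), 20 of them lower (41.7%, against 5.98%). At the middle dose 11 of 16 were called, all lower (68.8%, where 17.3% of all middle dose tests were called in either direction). Of the muscle miRNAs only miR-133a-3p was tested, at a median of 4.51 RPM. Of its 12 tests 4 were called, all lower (33.3%, against 18.1% called and 5.98% called lower over all tests). miR-1-3p and miR-206-3p were at or near 0. The part of these cell types in the low dose changes of miR-503-3p and miR-542-3p was not tested.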

How the data were processed

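Small RNA libraries were made from total RNA of 48 livers. Per the study's methods, adaptor-free reads between 18 and 25 bases in length were aligned by the authors to rn5, and miRDeep2 assigned them to entries of miRBase release 21. The deposited values are raw counts, with 1 row per mature miRNA and precursor, and hold no normalization. In the cluster, the precursor rows of each miRNA held identical counts, and the row with the most reads was kept.

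RPM were computed per library. A miRNA was tested if 3 or more of the 48 libraries held 5 RPM of it. The level of 5 follows the study, whose filter was on normalized values, while the use of RPM before normalization and the number of libraries were chosen here. Tests used edgeR 4.0.16 (quasi-likelihood F-test, R 4.3.3) with the study's upper quartile normalization and thresholds (fold change 1.5, p 0.05). Which libraries the study fitted together is not given in the sources used here. In this work the 12 conditions were fitted with 6 libraries each, and averages and differences in 1 fit of 16 groups. SE are the size of the log2 value over the square root of F. p-values were adjusted by Benjamini-Hochberg over all tested miRNAs.

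The arm shares were tested with 100000 resamples and Wilson intervals cover counting error only. PCR copies were not separated by molecular identifiers. On counts simulated for middle dose 28-d, 30 of 37 miRNAs changed by 1 log2 unit and 11 of 213 unchanged ones were called.

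The groups came from the titles, and replicates are separate rats. All 8 members were named in every condition. Of each comparison list, members called most often could be named, up to 4. The 5 miRNAs most like the cluster were ranked by Pearson's r with the mean of its standardized group means of log2(normalized RPM + 1). The members and lists were chosen with earlier results of these data known. Alternatives were TMM, DESeq2 size factors (DESeq2 1.42.0) or library size as scaling, other filters, tests, controls and precursor rows, and leaving out each library. Mature sequences and their GRCr8 positions are RefSeq's.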

Additional observations from a re-analysis of the deposited data

Results flagged for a closer look

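In each of the following, the difference of treated from control livers varied between dose groups by a direct test (edgeR's quasi-likelihood test, adjusted p below 0.05). At 14-d the high dose exceeded the low dose by 0.85 on the log2 scale for miR-503-3p and by 0.67 for miR-322-5p. Averaged over time points, the middle minus low dose difference was -0.78 for miR-542-3p, 0.66 for miR-503-3p and 0.60 for miR-450b-5p. The high minus low dose difference was 0.40 for miR-322-5p, 0.38 for miR-503-3p and 0.34 for miR-450a-5p. The high minus middle dose difference was 0.51 for miR-542-3p and 0.37 for miR-322-5p. Of all miRNAs, 19.3% passed the 14-d contrast, 47.5% middle minus low, 35.2% high minus low and 8.97% high minus middle dose. The high minus middle dose difference of miR-322-5p was lost under all 6 alternatives and in 37 of the 48 fits that left out 1 library. Its 14-d difference was lost in 25 of 48, and that of miR-503-3p in 4 of 48. The high minus low dose differences of miR-503-3p and miR-450a-5p were lost in 13 of 48 each. The former was also lost with TMM or no filter, and the latter with no filter. The high minus middle dose difference of miR-542-3p was lost with library size and in 1 of 48. The averaged contrasts were chosen after seeing the data. At each time point the doses share their controls, which cancel in these differences. The low dose livers up to 14-d bear the library numbers 40 to 48. The part of that numbering in these differences was not tested and cannot be told apart from that of dose.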

How the results depend on the processing

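Of the 9 calls of the cluster, other settings gave 7 to 13, and leaving out each library also gave 7 to 13. The lower calls went from 5 to 9 with TMM, DESeq2 size factors, no filter or DESeq2's Wald test and to 8 with 1 fit of all 48 libraries, and ranged from 4 to 9 without single libraries. These scalings moved the median log2 fold change of all tested miRNAs by -0.23 to 0.11 (TMM), -0.22 to 0.12 (DESeq2 size factors) and -0.21 to 0.28 (library size). The number of members past the adjusted threshold in the mean over 12 conditions was 1, and 3 with TMM, DESeq2 size factors or no filter (0 to 3 without single libraries). The low dose mean had 2, and 4 with those settings, library size or summed precursor rows (2 to 3). The middle dose mean had 2, and 1 with library size or 5 RPM in every library (1 to 3). The high dose mean had 0, and 1 with DESeq2 size factors, library size or 5 RPM in every library (0 to 1). The planned differences had 2, and 5 with TMM, DESeq2 size factors, library size or no filter (0 to 5), and the added ones 8, and 5 with no filter (5 to 10). The 14-d mean had 0 to 1 and the 3-d mean 0 to 2 without single libraries. The mean difference over 12 conditions changed sign for miR-322-3p from 0.06 to -0.016 (DESeq2 size factors) and -0.062 (no filter), for miR-322-5p from -0.04 to 0.0058 (library size) and to 0.013 to 0.015 without control 3-d replicates 2 or 3 or control 14-d replicate 14 (from -0.13 to 0.015 over all libraries), and for miR-450a-5p from 0.10 to -0.015 (no filter). No test called any of them. The miR-322 arm share difference went from 0.166 to 1.69 points without control 3-d replicate 1. The cause of these shifts was not tested. No paired analysis was possible because the labels give the groups no shared replicate numbers. Low counts limit miR-503-3p and miR-542-5p, which had as few as 5 and 3 counts in a library.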

Other observations

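Among the middle dose livers of 3-d, replicate 12 stood apart from the other two in several members. It had 18.8 normalized RPM of miR-503-3p where the others had 7.55 and 7.31, and 1160 of miR-351-5p where they had 588 and 598. Its miR-542-3p was 36.1 against 71.5 and 45.7, and 73.0% of its miR-542 reads came from the 3p arm, where the control livers other than 3-d replicate 1 had at least 76.2%. The averaged 3-d effect had 2 members past the adjusted threshold when this library was left out and 1 with it.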
